A study of Sus scrofa with 50 samples.

Results

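Heart was 1 of the 5 tissues (heart, kidney, liver, lung and spleen) sampled from each of 10 Korean minipigs, and it supplied 10 of the 50 RNA libraries of the series. Of these animals, 5 were of the ET-type (S0235, S0242, S0276, S0309 and S0326) and 5 of the L-type (S0349, S0355, S0377, S0384 and S0385). No treatment is named for any group, and age, sex, the part of the heart sampled and the meaning of the type names are not given in the sources used here. All 10 hearts, with both types pooled, were compared with 39 libraries of the other tissues: 9 of kidney and 10 each of liver, lung and spleen. The kidney library of S0235 was left out as a lymphoid sample, which the rule of the comparison sets. Animals were the replicates. Expression was in TPM, a transcript's length-corrected share of its library, summed over all assembled transcripts whose best protein match in Swiss-Prot had the same entry name. Genes are therefore called here by entry names such as MLRV, the ventricular myosin regulatory light chain. Differences are heart minus the other tissue on the scale log2(TPM + 1), which understates changes of entries with low values.

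Working heart muscle contracts without rest. In each sarcomere, the thick filaments of myosin pull on thin filaments of actin when calcium released from the sarcoplasmic reticulum binds troponin C. The energy comes mainly from mitochondrial oxidation of fatty acids, and creatine kinase carries high-energy phosphate from mitochondria to the filaments. Atrial muscle also secretes natriuretic peptides. Several of these functions rest on muscle forms of proteins that other tissues make from a sister gene.

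The label of the heart samples was set against 5 markers that came with the definition of the comparison, so their levels are a description and no test of identity. They were MLRV, the cardiac troponins TNNT2 and TNNC1, the slow and ventricular myosin light chain MYL3, and the muscle cytochrome oxidase subunit COX8B. Their summed level ran from 22784 TPM to 83870 TPM across the 10 hearts, with a median of 76052 TPM. Outside heart it peaked at 130 TPM in lung, 37.0 TPM in kidney, 7.47 TPM in spleen and 3.57 TPM in liver. Every heart lay above every other library for this sum. MLRV alone stood at 11458, 43791 and 51624 TPM (lowest, median and highest heart), against at most 62.8 TPM in any other library, which was a lung. It was higher in heart than in lung, the closest tissue, by 13.00 ± 0.55 (SE). COX8B ran from 1874 TPM to 4464 TPM in heart, was listed at 0 in all kidney and liver libraries, and reached 0.225 TPM in lung and 0.148 TPM in spleen. TNNT2 was higher by 11.20, MYL3 by 11.07 and TNNC1 by 10.49 than in the tissue nearest to heart.

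**Figure D1:**
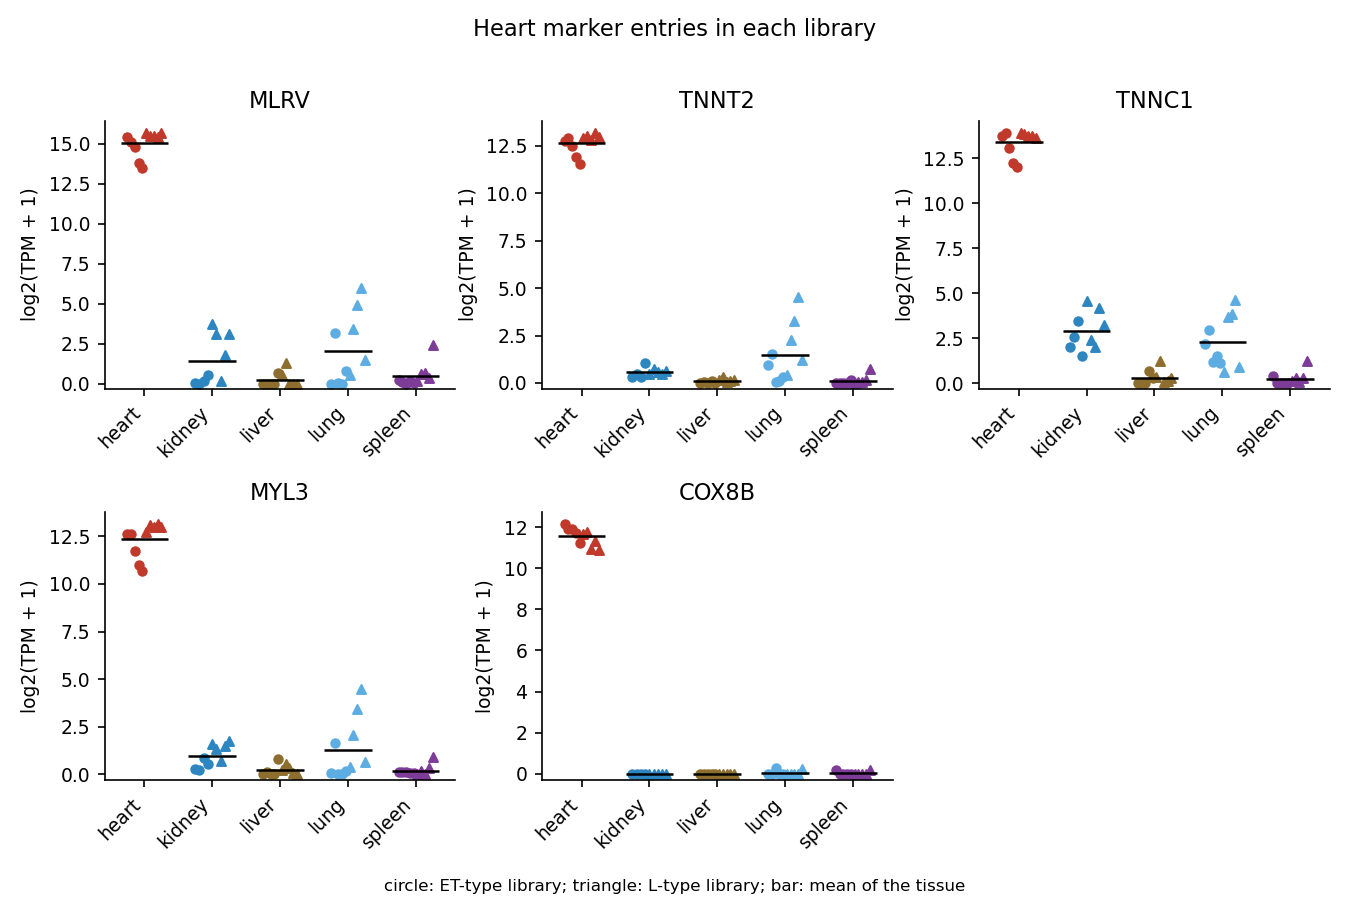
Levels of the 5 heart markers in every library, as log2(TPM + 1), by tissue. Circles are ET-type animals, triangles L-type animals and bars tissue means; all 10 hearts lie above all 39 other libraries for each marker.

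The hearts resembled one another. Pearson's r between 2 hearts, across entries, was at least 0.905 with a median of 0.967, while no heart reached more than 0.760 with a library of another tissue. The ET-type hearts S0309 and S0326 stood apart in muscle transcripts, with marker sums of 28012 TPM and 22784 TPM against 50111 TPM in S0276 and at least 68668 TPM in the rest. Counts of called entries below are also given without this pair where they changed. In pieces of tissue, fewer cells of a type and less RNA per cell cannot be told apart.

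An entry was called higher or lower in heart when the limma adjusted p was below 0.05 and the difference was at least 1. Heart exceeded all 4 other tissues in 524 entries, 3.84% of the 13644 tested, and lay below all 4 in 722, 5.29%. Without hearts S0309 and S0326 the counts were 563 and 823, and with the kidney of S0235 kept they were 542 and 733. The difference from the nearest tissue had a median of 1.86 among the higher entries and was at least 5 in 57 of them. Among the lower entries this median was −1.33, and 8 entries differed by 3 or more. The higher entries together made up 14.0%, 27.5% and 30.0% of heart TPM (lowest, median and highest heart). Their median share was 3.15% in kidney, 1.94% in lung, and 1.84% in both liver and spleen. For 305 of the 524 every heart lay above every other library, which held for 2.28% of all entries tested. The reverse held for 394 of the 722 lower entries and for 3.94% of all.

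Single tissues differed in how many entries separated them from heart. Against kidney, 1169 entries were higher in heart (8.57%) and 4070 lower (29.8%). The counts were 2515 higher (18.4%) and 2530 lower (18.5%) against liver, 916 higher (6.71%) and 6869 lower (50.3%) against lung, and 1307 higher (9.58%) and 4032 lower (29.6%) against spleen. The median difference of all entries was −0.48 against kidney, −0.01 against liver, −1.01 against lung and −0.48 against spleen. TPM are shares of a fixed total, so a level is relative to all others. Scaling by median ratios moved these medians to 0.05, 0.04, 0.00 and −0.04.

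That scaling kept all 524 higher entries but only 236 of the 722 lower entries (32.7%). It gave 940 higher entries (6.94%) and 241 lower entries (1.78%). The share of higher among all calls went from 42.1% to 79.6%. It was 70.5% with mitochondrial genome transcripts left out and 58.0% with the 10 highest entries left out. Against kidney the share went from 22.3% to 51.3% with median ratios, against lung from 11.8% to 48.6% and against spleen from 24.5% to 46.3%. Against liver it went from 49.9% to 67.5% with mitochondrial genome transcripts left out. Most lower entries named as calls below are therefore given with their outcome under median-ratio scaling.

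Most entries of the filament lists were higher in heart. Their counts include given markers, MLRV and MYL3 in the thick-filament list and TNNT2 and TNNC1 in the thin-filament list. To that extent the counts are a description, as for the markers above. Of 15 tested entries of the thick filament and M-band, 14 were higher than in all 4 other tissues, as in all list counts that follow, and the list median was 5.62 against kidney, 6.81 against liver, 5.35 against lung and 6.46 against spleen. MYH7, the slow and ventricular myosin heavy chain, ran from 1272 TPM to 9647 TPM with a median of 3549 TPM in heart and reached at most 16.3 TPM elsewhere, with a difference of 8.98 from lung. MYPC3, cardiac myosin-binding protein C, varied little among hearts (1239, 1744 and 2300 TPM) and was 9.02 above spleen. MLRA, the atrial regulatory light chain, was also high in every heart (622, 1914 and 5369 TPM) and reached at most 5.35 TPM elsewhere. TITIN, the giant spring protein of the sarcomere, had 78.7, 131 and 159 TPM in heart and 5.82, 32.3 and 52.7 TPM in lung, so the groups did not overlap but the difference was only 2.35.

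Thin-filament entries gave 8 higher of 9 tested. TNNI3, cardiac troponin I, had 3354, 6550 and 10846 TPM in heart, followed by lung with 28.2, 73.2 and 184 TPM, a difference of 6.50. The fetal and slow-muscle form TNNI1 stayed low in most hearts (0.0258, 0.439 and 28.5 TPM) and was not called higher or lower than in each tissue. Cardiac actin ACTC, with 322, 1385 and 4135 TPM in heart, also reached 242.4 TPM in kidney and 268 TPM in spleen, and its difference from spleen was 3.35. Skeletal actin ACTS had 497, 2462 and 4678 TPM in heart and was 5.41 above spleen.

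In the list of Z-disc proteins, intermediate filaments and muscle chaperones, 20 of 26 tested entries were higher. TELT (telethonin, the cap of titin) had 2298, 5641 and 7760 TPM in heart and no more than 28.3 TPM elsewhere. MYOZ2 (myozenin 2), CSRP3 (muscle LIM protein) and the stress-induced ankyrin repeat protein ANKR1 exceeded the nearest tissue by 9.53, 8.86 and 8.06. DESM, desmin, was chosen for mention after its values were seen. It had 59.3, 214 and 325 TPM in heart but 129, 272 and 378 TPM in spleen, and did not differ from spleen by the test (−0.60, limma adjusted p = 0.098).

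Costamere and intercalated-disc entries, which tie sarcomeres to the membrane and cells to each other, gave 7 higher of 21 tested. CXA1, the gap junction protein connexin 43, had 25.2, 50.6 and 97.3 TPM in heart and 4.16, 9.56 and 22.6 TPM in lung, a difference of 2.19. The desmosomal plakophilin PKP2 was 1.89 above liver, and CAV3, muscle caveolin, 3.50 above spleen. N-cadherin (CADH2), again picked after its values were seen, differed from spleen by 0.30 only (limma adjusted p = 0.22).

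**Figure D2:**
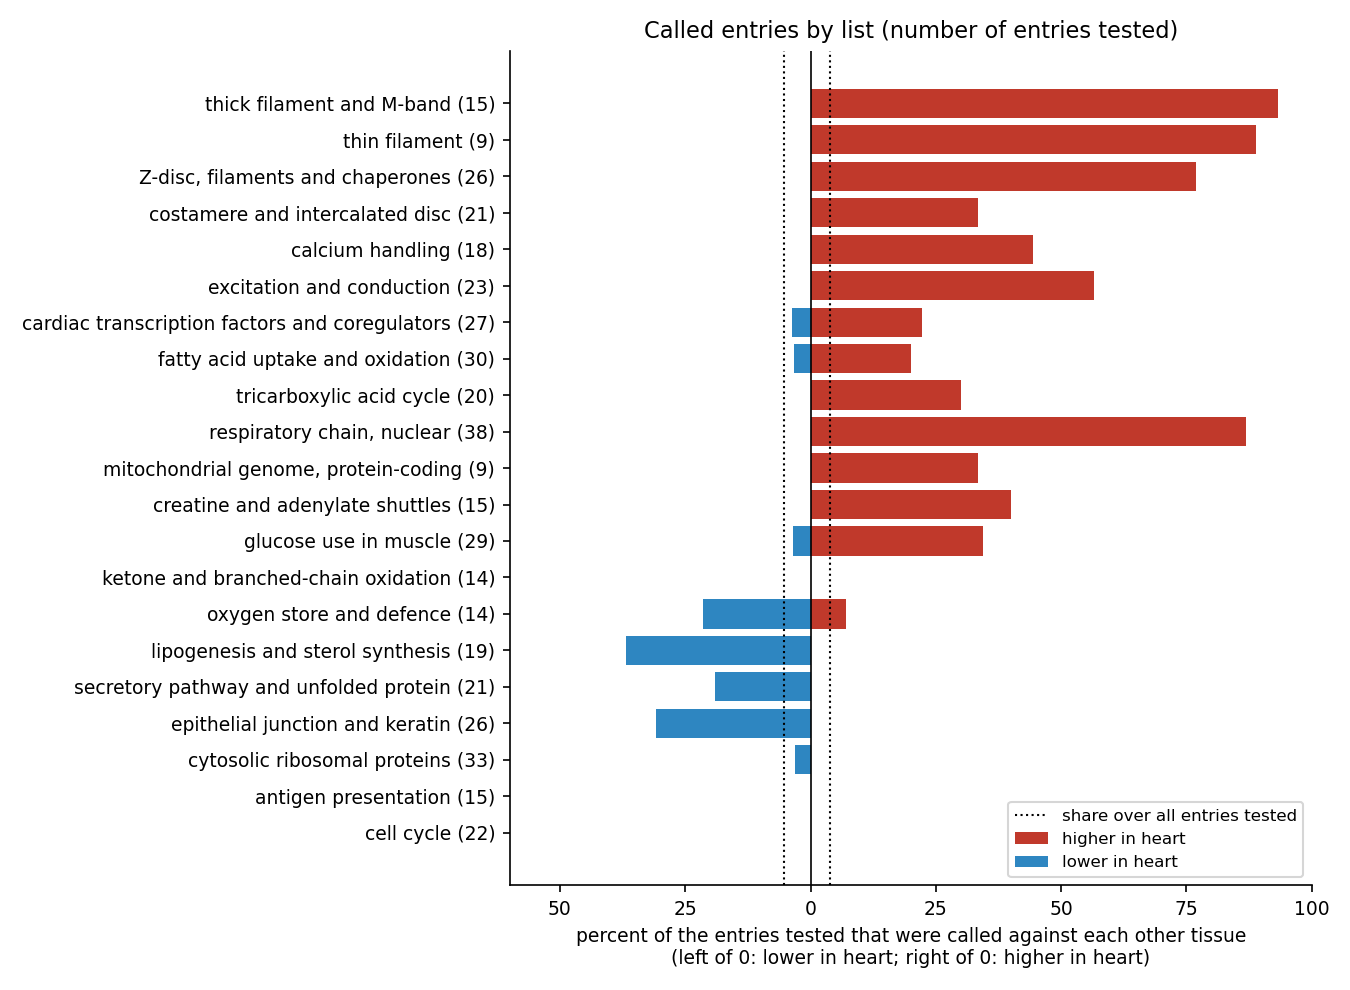
Percent of tested entries of 21 gene lists called higher (bars to the right) or lower (bars to the left) in heart against all 4 other tissues. Dotted lines mark the shares over all entries, 3.84% and 5.29%; of the 21 lists plotted, those of the thick filament, the thin filament and the nuclear respiratory chain extend farthest to the right.

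Calcium-handling entries gave 8 higher of 18 tested (9 without hearts S0309 and S0326), with list medians of 1.91, 3.24, 1.62 and 1.61 against kidney, liver, lung and spleen. PPLA, phospholamban, which restrains the calcium pump of the sarcoplasmic reticulum, had 445, 1238 and 2034 TPM in heart and at most 81.6 TPM elsewhere, and it exceeded spleen by 4.54. The pump itself, AT2A2 (SERCA2), is made in many tissues. It had 67.3, 179 and 336 TPM in heart and 31.5, 58.8 and 77.7 TPM in lung, so the ranges overlapped and the difference was 1.61. RYR2, the cardiac calcium release channel, had 51.5, 89.3 and 132 TPM in heart and up to 63.7 TPM in lung, a difference of 1.43. Its store protein calsequestrin, CASQ2, exceeded kidney by 3.57. CAC1C, the pore of the L-type calcium channel, had 16.5, 18.6 and 26.3 TPM in heart and 29.1 TPM in the highest lung.

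Triadin (TRDN), which anchors calsequestrin to the release channel, was looked at after its values were seen. It had 45.5, 70.8 and 83.4 TPM in heart and 19.9, 59.2 and 203 TPM in kidney, a difference of 0.03, and exceeded the other 3 tissues by at least 4.09.

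For excitation and conduction, 13 of 23 tested entries were higher, and 11 to 13 with 1 animal left out. KCIP2, the subunit that brings transient outward potassium channels to the membrane, had 61.6, 103 and 153 TPM and was 4.55 above lung. KCNJ4, an inward rectifier, had 24.2, 50.9 and 125 TPM in heart and at most 0.627 TPM elsewhere. Among receptors and cyclic AMP effectors, the muscarinic receptor ACM2 was 2.51 and the Popeye protein POPD2 4.21 above the nearest tissue.

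The natriuretic peptide precursors ANF and ANFB were the 2 of 7 tested secreted factors higher in heart. ANF had 38.5, 126 and 1147 TPM in heart, was listed at 0 in all kidney and liver libraries and reached 0.416 TPM in lung, a difference of 7.23. ANFB, the B-type precursor, varied more (0.990, 15.4 and 82.6 TPM), and 1 lung reached 25.4 TPM. Of 8 tested atrial and conduction entries, 3 were higher, namely ANF, MLRA and the atrial potassium channel KCNJ3. The atrial essential light chain MYL4 was low in most hearts (0.992, 8.38 and 174 TPM) and not called against kidney (0.93, limma adjusted p = 0.082), while median ratios made it a call at 1.55.

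Of 27 tested cardiac transcription factors and coregulators, 6 were higher: MYCD (myocardin, 2.54), PERM1 (2.48), HEY2 (1.98), TBX5 (1.14), FOG2 (1.11) and HAND2 (1.02). PPARD was −1.25 from kidney, a call lost with median ratios at −0.62. TBX5, a patterning factor of the heart, lay at 6.47, 11.3 and 13.8 TPM in heart and overlapped lung, which reached 15.7 TPM. The HAND2 call was lost without S0349 (0.97), S0377 (0.90), S0384 (0.95) or S0385 (0.95).

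NKX25, the homeobox factor of cardiac specification, and its partner GATA4 were picked after their values were seen. NKX25 had 11.4, 44.2 and 71.6 TPM in heart and 25.1, 40.8 and 58.3 TPM in spleen, with no more than 0.255 TPM in the other tissues. Heart did not differ from spleen by the test (−0.05, limma adjusted p = 0.88), but exceeded kidney by 5.25. GATA4 had 21.2, 28.6 and 47.3 TPM in heart and 12.7, 17.6 and 27.5 TPM in liver, a difference of 0.66 that was under the minimum for a call.

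The supply of energy formed the second large block. Of 38 tested nuclear-encoded respiratory chain subunits, 33 were higher (36 without hearts S0309 and S0326), with list medians of 1.71 against kidney, 2.26 against liver, 2.34 against lung and 2.53 against spleen. The largest difference in this list belonged to NDUA4, a subunit tied to cytochrome oxidase, with 941, 2368 and 3359 TPM in heart and up to 580 TPM in kidney (2.95). QCR7 and UCRI of complex III followed with 2.93 and 2.74, while COX7B had one of the smallest calls at 1.17. In the tricarboxylic acid cycle 6 of 20 tested entries were higher, led by IDH3A (2.30), and 10 without hearts S0309 and S0326. With 1 animal left out, 5 to 7 were higher. Citrate synthase CISY had 85.9, 246 and 431 TPM in heart and was 1.43 above lung, a call lost in ET-type animals alone.

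Fatty acid uptake and oxidation gave 6 higher (7 without hearts S0309 and S0326) and 1 lower of 30 tested, with list medians of 0.71 against kidney, −0.10 against liver, 1.0 against lung and 1.65 against spleen. LIPL, the lipoprotein lipase that frees fatty acids in capillaries, had 25.5, 61.2 and 120 TPM in heart and overlapped only with lung, where 1 library reached 28.6 TPM (3.87). CD36, the fatty acid translocase, had 456, 723 and 1110 TPM in heart and 160, 334 and 671 TPM in lung, and its difference was 1.11 (limma adjusted p = 0.00036). This call was lost without hearts S0309 and S0326, at 0.95. FABPH, the heart fatty acid-binding protein, had 175, 631 and 1028 TPM in heart and 58.8, 126 and 352 TPM in kidney, a difference of 2.11. The mitochondrial thiolases ECHB and THIM were 1.66 and 2.16 above the nearest tissue. Of 14 tested entries of ketone and branched-chain amino acid use, limma called 0 in either direction against all 4 tissues together, and the count was also 0 at an unadjusted p below 0.05 in all 4. Against single tissues, 9 of the 14 were lower and 2 higher than in liver (list median −1.55), 3 lower and 2 higher than in kidney, and 5 higher than in spleen and 1 than in lung with 0 lower. Over all entries 18.5% were lower and 18.4% higher than in liver, and 29.8% lower and 8.57% higher than in kidney. For spleen these shares were 29.6% and 9.58%, and for lung 50.3% and 6.71%. With median ratios 2 of the 14 were higher than in all 4.

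The 9 protein-coding entries found for the mitochondrial genome took 29.1% to 47.1% of heart TPM, with a mean of 37.4%. NU2M, NU4LM, NU6M and ATP8 had no entry, and transcripts without a protein hit are outside this share. The same 9 entries are meant wherever mitochondrial genome transcripts are said to be left out. Kidney had a mean of 28.3% (range 12.3% to 45.6%), liver 10.03%, lung 6.44% and spleen 3.63%. Every heart exceeded every liver, lung and spleen library (two-sided permutation p = 2e-05, the smallest the resamples can give, adjusted over 12 tests 3.71e-05). Against kidney the difference missed the threshold (exact two-sided permutation p = 0.0525, adjusted 0.0525). By entry, 3 of 9 tested protein-coding genes of the mitochondrial genome were higher than in each tissue, and 8 with median ratios. The count was 1 without hearts S0309 and S0326, 1 without animal S0309, 1 without S0385, and 2 without S0242 or S0276. COX1 had 131927, 190556 and 243755 TPM in heart and 63030, 146835 and 249003 TPM in kidney, a difference of 0.51 (limma adjusted p = 0.079).

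The TPM of heart was concentrated in few entries. The 10 highest took a mean of 43.8%, against 33.6% in kidney (exact permutation p = 0.0178, adjusted 0.0194), 28.0% in liver, 26.6% in spleen and 14.3% in lung. An average of 11231 entries reached 1 TPM in heart. There were 12283 in kidney, 12936 in lung and 12006 in spleen, each more than in heart, and 10815 in liver, which was fewer (permutation p = 0.00552, adjusted 0.00662).

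Sister genes of the same subunit or enzyme were compared as shares of their summed TPM. All 3 muscle forms of cytochrome oxidase subunits were higher in heart, while of 5 other forms CX6B1 was higher and CX6A1 lower. COX8B, among these 3 muscle forms, is a given marker. COX8B took a median of 94.2% of the sum of COX8B and COX8A in heart and 0% in each other tissue. CX6A2 had 729, 1720 and 2094 TPM in heart, a median of 96.4% of the sum with CX6A1, against 7.63% in kidney and 16.6% in spleen, the highest of the other tissues. CX6A1 had 44.5, 66.5 and 124 TPM in heart and was −1.40 from liver, a call lost with median ratios at −0.55. CX7A1 made up 54.5% of its pair with CX7A2 in heart and 10.9% in kidney, the next highest.

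Enzymes of fuel use were compared in the same way. CPT1B, the muscle enzyme that commits fatty acids to mitochondria, had 124, 234 and 409 TPM in heart and took 94.2% of the pair with CPT1A. The next highest median was 28.6% in lung. CPT1A itself had 6.62, 15.1 and 28.9 TPM in heart and was −1.18 from lung, which turned to a difference of 0.00448 with median ratios. The muscle phosphofructokinase PFKAM took 90.4% of its pair with the liver form PFKAL in heart, against 21.4% in kidney. LDHB, the lactate dehydrogenase subunit of oxidative tissue, took 99.0% of the sum with LDHA. Its heart range of 95.7% to 99.5% overlapped the kidney range of 89.4% to 96.5%, and no other pair described here overlapped between heart and another tissue.

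Creatine and adenylate shuttles gave 6 higher of 15 tested, and 8 higher and 1 lower without hearts S0309 and S0326. KCRM, the cytosolic muscle creatine kinase, had 966, 3665 and 7740 TPM in heart and at most 19.6 TPM elsewhere, and took 99.5% of the sum with the brain form KCRB. KCRS, the mitochondrial muscle creatine kinase, had 241.7, 1097 and 1501 TPM and was 7.45 above kidney. ADT1, the muscle form of the ATP carrier of mitochondria, took 97.96% of the pair with ADT2 in heart and 74.1% in liver, the next highest.

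For glucose use in muscle, 10 of 29 tested entries were higher (11 without hearts S0309 and S0326) and 1 lower. With 1 animal left out, 8 to 11 were higher. Muscle enolase ENOB had 404, 1787 and 2206 TPM in heart and was 5.13 above lung, while the widespread ENOA was −1.73 from its nearest tissue, a call lost with median ratios at −0.69. ENOB took 96.8% of their sum in heart and 11.96% in lung. PGAM2, muscle phosphoglycerate mutase, was 5.30 above spleen. The insulin-responsive glucose transporter GLUT4, picked after its values were seen, had 38.8, 70.1 and 164 TPM in heart and was 3.25 above spleen. MYG, myoglobin, the oxygen store of muscle, had 3649, 9911 and 16901 TPM in heart, at most 29.0 TPM elsewhere and a difference of 10.35.

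**Figure D3:**
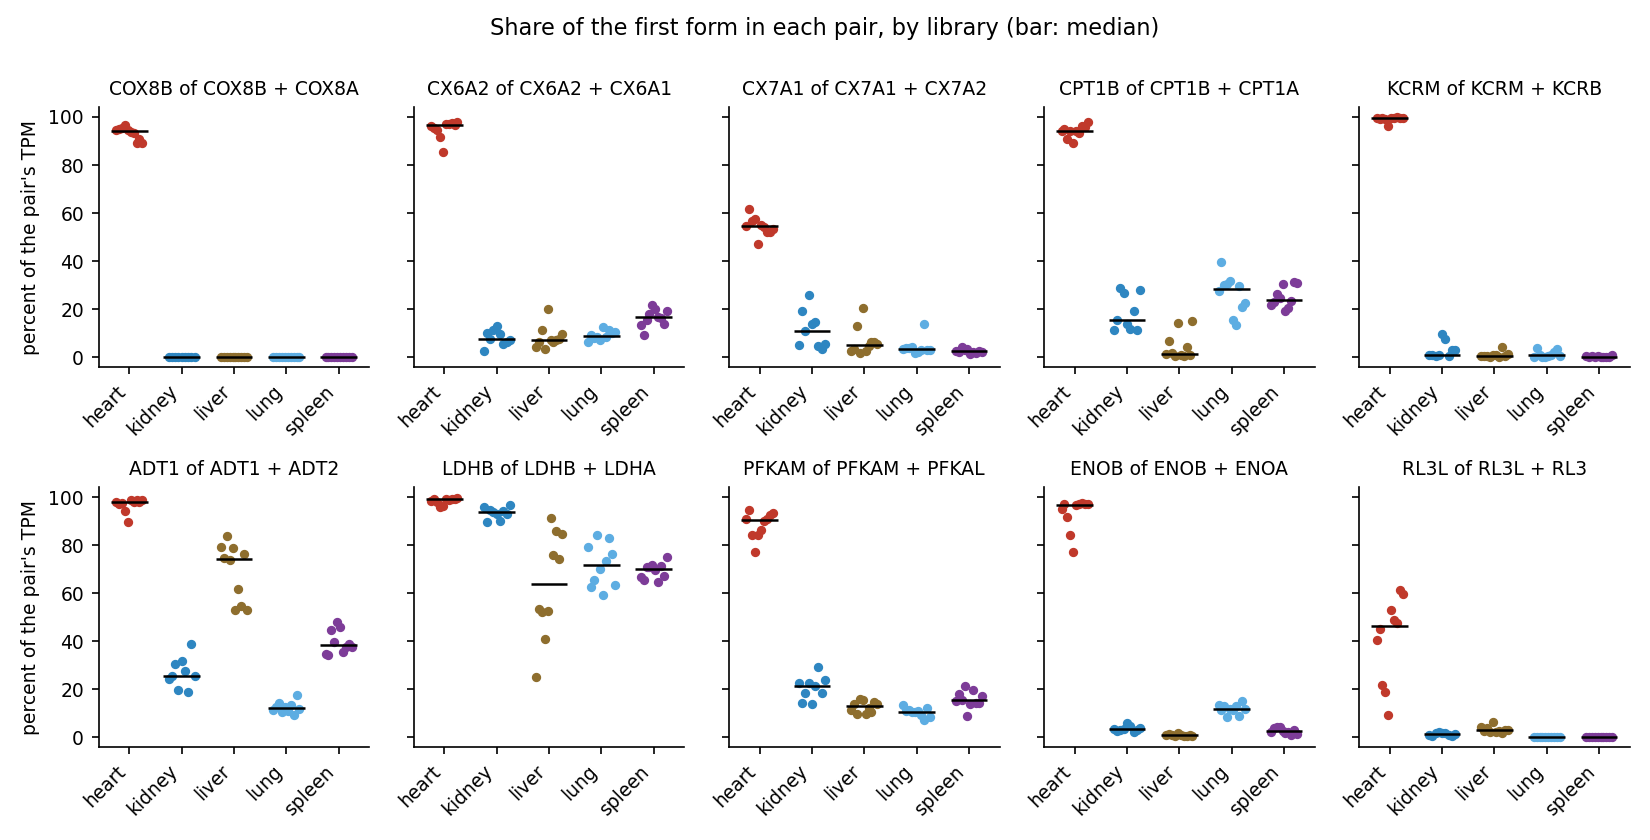
Percent of the summed TPM of a pair of sister entries held by the first-named form, in each library, by tissue; bars are medians. The heart points lie above those of the other tissues in each pair except for LDHB and LDHA, where heart and kidney overlap.

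Entries lower in heart than elsewhere were mostly present at low levels. The median level of the 722 lower entries in heart was 5.21 TPM, and 111 of them were below 1 TPM on average. STXB2, a partner of syntaxins in granule and vesicle release, had 0.298, 0.468 and 1.15 TPM in heart. The lowest library of any other tissue, a liver, had 13.8 TPM, and the difference from liver was −3.71 ± 0.19 (SE, limma adjusted p = 1.4e-23). AMPN, aminopeptidase N of epithelial and myeloid surfaces, had 0.157, 0.351 and 0.830 TPM in heart and was −3.54 from spleen. The Rab regulator DEN1C was −3.52 from liver, and LPIN2, a phosphatidate phosphatase, had 2.37, 4.11 and 5.35 TPM in heart and was −3.03 from spleen. These 4 entries had no overlap between hearts and other libraries, and remained calls with median ratios (−3.94, −3.33, −3.24 and −2.46). The entry with the largest distance, PGKA1 (−4.27), rested on 1 transcript that matched its protein with 59.2% identity, so its name is uncertain.

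Of 14 tested entries of oxygen storage and oxidant defence, 3 were lower, and 2 without hearts S0309 and S0326. FRIL, the ferritin light chain that stores iron, had 756, 979 and 1375 TPM in heart, while the lowest other library, a lung, had 4212 TPM. The difference from lung was −2.40 and stayed a call with median ratios at −1.14. GPX1, glutathione peroxidase 1, was −1.38 from kidney and the ferritin heavy chain FRIH −1.07, and both calls were lost with median ratios (−0.67 and −0.06). The FRIH call was also lost without S0242 (−0.97), without S0309 (−0.98) and without hearts S0309 and S0326 (−0.95). HMOX1, the heme oxygenase of red cell recycling, had 1.79, 2.61 and 5.83 TPM in heart and up to 4416 TPM in spleen. Its nearest tissue was kidney at −1.75, and median ratios kept this call at −1.17.

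Synthesis of fat and sterols gave 7 lower of 19 tested (6 without hearts S0309 and S0326). The list medians were −1.22 against kidney, −3.86 against liver, −2.20 against lung and −0.62 against spleen. With median ratios they were −0.68, −3.82, −1.14 and −0.06 in the same order. SRBP2, the transcriptional regulator of sterol synthesis, had 7.28, 11.4 and 21.4 TPM in heart and no less than 28.6 TPM elsewhere, with a difference of −1.93 from kidney. The sterol reductase DHCR7 (−1.70) and fatty acid synthase FAS (−1.64) were lower in the same way. With median ratios these 3 stayed calls (−1.26, −1.21 and −1.17), and SRBP1, ELOV6, ACLY and DHC24 did not.

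Of 21 tested entries of the secretory pathway, 4 were lower. All 4, the chaperones CALR (−1.74), PDIA1 (−1.5), PDIA4 (−1.43) and PDIA3 (−1.10), lost the call with median ratios, and PDIA3 then differed by 0.0555. Among 33 tested cytosolic ribosomal proteins only RL3 was lower in heart (3.03%, against 5.29% of all entries). RL3 had 122, 248 and 555 TPM in heart, no less than 460 TPM elsewhere, and a difference of −1.23, or −1.13 with median ratios. Its call was lost with mitochondrial genome transcripts left out, with the 10 highest entries left out and in ET-type animals alone.

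**Figure D4:**
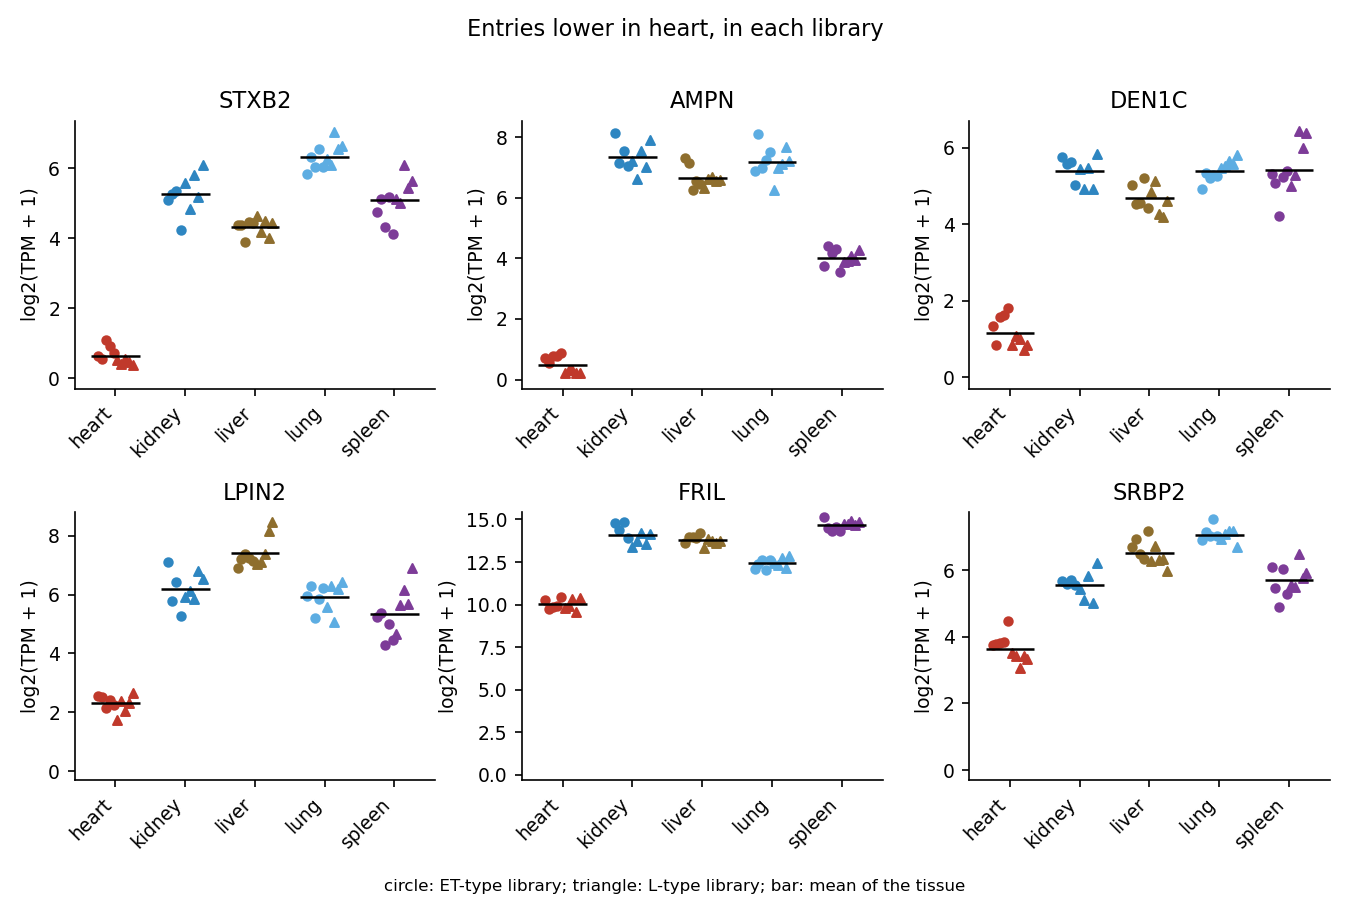
Levels of 6 entries lower in heart (STXB2, AMPN, DEN1C, LPIN2, FRIL and SRBP2) in every library, as log2(TPM + 1), by tissue. Circles are ET-type animals, triangles L-type animals and bars tissue means; all hearts lie below all other libraries for each entry.

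Epithelial junction and keratin entries gave 8 lower of 26 tested, 6 with median ratios and 7 without hearts S0309 and S0326. The tight junction protein CLD3 had 0, 0.0219 and 0.218 TPM in heart and at least 1.28 TPM elsewhere, with a difference of −2.14 from spleen (−2.05 with median ratios). The adhesion molecule EPCAM was −1.67 from spleen (−1.56 with median ratios) and reached only 0.338 TPM in heart. The sum over all 26 entries was 36.3, 44.5 and 50.9 TPM in heart, and 121, 193 and 224 TPM in spleen, the tissue with the next lowest sum.

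Against single tissues, the 3 entries farthest below each included well-known products of that tissue. Albumin (ALBU) was −15.03 from liver, the pulmonary surfactant-associated PSPC −11.56 from lung, the gluconeogenic enzyme PCKGC −9.84 from kidney, and the immunoglobulin chain IGM −11.96 from spleen. IGM was lower than in each tissue (nearest liver, −2.85) and so was the T cell receptor chain CD3Z (nearest kidney, −1.91); both remained calls with median ratios (−2.62 and −1.44). CD3Z was the only entry of 15 tested lymphocyte markers called against all 4 tissues together. All 15 were lower than in spleen (list median −4.03), 13 lower than in lung (−2.23), 5 lower than in kidney and 1 lower than in liver. With median ratios the list medians were −3.72 against spleen and −1.44 against lung. Over all entries 29.6% were lower than in spleen, 50.3% than in lung, 29.8% than in kidney and 18.5% than in liver. The lymphocyte count against kidney is near that share, and the count against liver is not above it.

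Markers of the other cells that a piece of heart can hold were measured beside these groups. Of 17 tested endothelial entries 2 were higher in heart, the fatty acid-binding protein FABP4 (1.52) and the water channel AQP1 (1.07), and 9 with median ratios. The AQP1 call was lost without S0235, S0276, S0309, S0326, S0355 or S0377, with differences of 0.87 to 1.11, and without hearts S0309 and S0326 (1.01); above 1, limma's adjusted p missed the threshold. The summed endothelial level was 556, 991 and 1935 TPM in heart and 547, 1485 and 3054 TPM in lung. Of 23 fibroblast and matrix entries 3 were higher than in all 4 tissues (LAMA2, LUM and LAMC1). Against spleen alone 10 of the 23 were lower and 6 higher (list median −0.94), and against lung 5 were lower and 7 higher (0.58). Over all entries 29.6% were lower and 9.58% higher than in spleen, and 50.3% lower and 6.71% higher than in lung. With median ratios the list medians were −0.36 against spleen and 1.78 against lung. Of 12 smooth muscle and pericyte entries 1 was higher than in all 4, the pericyte regulator RGS5, with 72.1, 153 and 294 TPM in heart and a difference of 4.12. Of the same 12, 10 were lower and 1 higher than in spleen (list median −3.26), and 6 lower and 3 higher than in lung (−0.99). The count lower than in lung is near the 50.3% of all entries. With median ratios the list medians were −2.71 against spleen and 0.20 against lung. The summed macrophage level was 109, 304 and 526 TPM in heart. Its median was 25394 TPM in spleen, 913 TPM in lung, 597 TPM in liver and 157 TPM in kidney. Limma called 0 of 12 entries in either direction against all 4 tissues together. Of these 12, 8 were lower and 1 higher than in spleen (list median −4.52), and 8 lower than in lung (−1.27). With median ratios these list medians were −4.20 and −0.03. At an unadjusted p below 0.05 in all 4 comparisons 1 was lower.

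Skeletal muscle was checked in the same way. Of its 26 entries 14 averaged under 1 TPM, among them the fast myosins MYH1, MYH2 and MYH4, which reached at most 0.400, 0.0301 and 0.903 TPM in any heart, and MYF5, listed at 0 in every heart. Of 12 tested, ENOB and the slow troponin T TNNT1 (31.2, 48.1 and 67.8 TPM in heart, 4.35 above kidney) were higher. Of 6 tested red cell entries, ankyrin ANK1 (6.14) and spectrin SPTB1 (2.41) were higher, and both have muscle forms. The other 4 were lower than in spleen, and the median of all 6 against spleen was −4.76. Their summed level had a median of 316 TPM in heart and 142840 TPM in spleen.

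Levels of several groups varied among hearts. MLRV was 13994 TPM in S0309 and 11458 TPM in S0326, against 28623 to 51624 TPM in the other hearts. In the same libraries the nuclear respiratory chain sum was 17822 TPM and 17000 TPM, against 29628 to 42950 TPM in the others. Their endothelial sums were the highest of the hearts at 1935 TPM and 1610 TPM, against 556 to 1191 TPM. Their mitochondrial genome shares were 47.1% and 43.5%, with S0276 between them at 45.5% and the others at 29.1% to 39.6%. The part of those levels in the lower muscle values was not tested. ANF was highest in S0242 (1147 TPM) and S0326 (999 TPM), against 38.5 to 301 TPM in the rest. MYL4 was highest in the same pair (174 TPM and 128 TPM, against 0.992 to 27.7 TPM). The haemoglobin chain HBB ran from 7.93 TPM to 857 TPM among hearts.

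**Figure D5:**
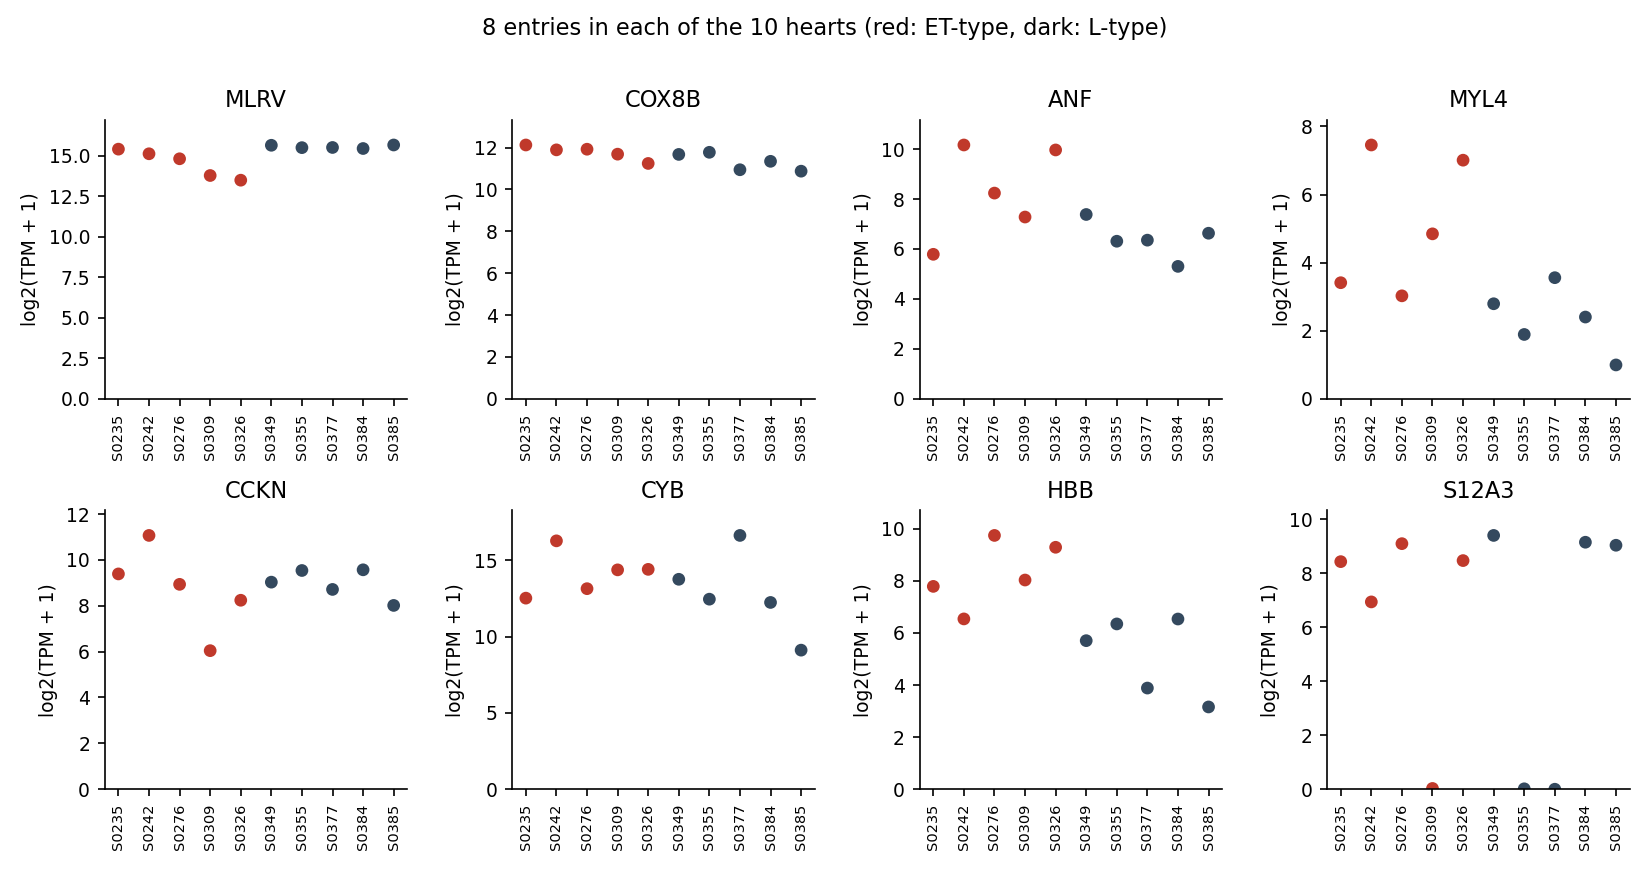
Levels of 8 entries in each of the 10 hearts, as log2(TPM + 1), in ET-type (red) and L-type (dark) animals. MLRV is lowest in S0309 and S0326, ANF and MYL4 peak in S0242 and S0326, and S12A3 is near 0 in 3 hearts.

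Whether heart differed from the other tissues to the same extent in both types was tested as an interaction. The heart difference, averaged over the 4 tissues, differed by type in 940 entries, 6.89% of those tested (limma adjusted p below 0.05), with 824 above and 116 below zero as ET-type minus L-type. At an unadjusted p below 0.05 there were 4415. Of the 524 entries higher in heart, 81 were among them, 59 with a smaller difference in ET-type animals and 22 with a larger one. The median difference by type was −0.43 over these 524 and 0.33 over all entries. Without hearts S0309 and S0326 only 16 entries were called, without S0326 alone 48 and without the L-type animal S0385 alone 63, so this count rests on single animals. With the animal as a block it was 1584. Myosin light chain MYL4 (3.01) and ANF (1.88) were larger in ET-type animals, and both were highest in the ET-type hearts S0242 and S0326. Skeletal actin ACTS (−1.76) and the atrial channel KCNJ3 (−0.97) were smaller. Each of these entries had a limma adjusted p below the threshold.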

How the data were processed

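Total RNA was extracted with TRIzol and libraries were made with a stranded mRNA kit, per the labels' protocols. The deposited TPM of 50 libraries cover 57085 transcripts assembled by the authors. The submitters' processing notes name Trimmomatic 0.36, Salmon 1.10.0 and the build Sscrofa11.1. All 50 sample columns were matched to labels, leaving 0 unused. TPM keep no read depth, so depth is unknown and no counting error is given. Of the transcripts, 36484 (63.9%) carried a Swiss-Prot best hit, with a median identity of 91.7%, and their TPM were summed into 14532 entries. Entry names can pool related genes or name a relative.

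Values were tested as log2(TPM + 1) with limma 3.58.1 (R 4.3.3), with an intensity trend, over 49 libraries with 1 mean per tissue. The 29725 units with a mean of at least 1 TPM (13644 entries and 16081 transcripts without a hit) were adjusted together by Benjamini-Hochberg. Single measures per library were compared by permutation (scipy 1.17.1): over all 92378 arrangements against kidney and 100000 resamples otherwise. Median-ratio scaling divided each library by the median of its ratios to the geometric mean over libraries, from units above 0 in all. The fit was tested on simulated data before use.

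Named entries were the 15 farthest above and below, the 10 highest in heart and called members of the 40 gene lists. Of a list with more than 8 called, 6 were taken, plus any called against the direction of the rest. Added were the 3 largest in each direction against each tissue and the 10 most variable among hearts. The last were the 5 with the strongest difference by type and pairs of sister forms. Some entries that this rule picks are not reported here. Others are said to be picked later. The comparison, markers and lists were chosen with earlier results of these data known. Same-animal libraries are paired by the labels. Deviations from tissue means correlated with a mean r of 0.219 over 39 such pairs (36 above 0.1) and −0.0546 over 156 pairs from different animals. Sequences were not used here.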

Additional observations from a re-analysis of the deposited data

Results flagged for a closer look

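Among the 181 named entries, 12 had 1 heart separated from the other hearts by a gap past Dixon's critical value on the log2(TPM + 1) scale; chance gives such a gap in about 1 group in 20. Single hearts were high for entries of low level in heart: SELM at 20.4 TPM and the immunoglobulin chain LV861 at 14.9 TPM in S0326, CD3Z at 3.82 TPM in S0235, and albumin (ALBU) at 3.69 TPM in S0309. S0242 was high for the keratins K2C7 (0.441 TPM) and K2C8 (5.13 TPM) and for the sterol reductase DHC24 (22.2 TPM), and low for the mitochondrial COX1 (131927 TPM). S0377 was low for TITIN (78.7 TPM) and S0235 for the muscle chaperone HSPB2 (34.4 TPM). S0385 was high for the spectrin SPTB1 (20.6 TPM) and for PSPC (0.662 TPM).

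The heart difference of 30 named entries differed between ET-type and L-type animals in limma's interaction test (adjusted p below 0.05). Values are the heart difference in ET-type animals minus that in L-type animals, on the log2 scale. Heart exceeded the mean of the other tissues by less in ET-type animals for the sarcomere and Z-disc entries ACTS (−1.76), CEFIP (−1.38), ANKR1 (−1.25), LMOD2 (−1.22), SYP2L (−0.89) and MYOZ2 (−0.83), and the membrane and channel entries POPD2 (−1.57), KCNJ4 (−1.28), ANK1 (−1.14), CAV3 (−1.09), SGCA (−1.07) and KCNJ3 (−0.97). Metabolic entries in the same direction were ECHB (−1.30), ALDOA (−1.23), CISY (−0.98), G3P (−0.95) and IDH3A (−0.70), and so were MR1L1 (−1.34) and TECRL (−1.07). Heart exceeded that mean by more in ET-type animals for the atrial entries MYL4 (3.01) and ANF (1.88) and the pericyte entry RGS5 (1.48). MYL4 and ANF were both highest in the ET-type hearts S0242 and S0326. The atrial channel KCNJ3, given above, went the other way. Heart was below that mean in both types, and by less in ET-type animals, for F107B (1.76), HOP (1.15), RL3 (1.14), ELOV6 (1.08), ENOA (0.99), PDIA4 (0.85) and CX6A1 (0.70). C19L2 (1.29) was above that mean in ET-type animals (0.56) and below it in L-type animals (−0.73). Hearts S0309 and S0326, both ET-type, had the lowest MLRV, and without them the test called 16 entries over all, against 940 with them.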

How the results depend on the processing

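Counts for single tissues, and percents of entries tested for all 4 tissues together, are given as higher/lower in heart. With no minimum difference they were 2106/7066 against kidney, 4287/4369 against liver, 1465 higher against lung, 2120/7051 against spleen and 6.22%/17.8% against all 4. With a difference of at least 2 they were 497/1499, 1125/1293, 461/2652, 608/1468 and 1.77%/0.528% in the same order. Median-ratio scaling gave 2386/2269 for kidney, 2394/2528 for lung, 2080/2415 for spleen and 6.94%/1.78% for all 4. Without mitochondrial genome transcripts there were 3902 higher against liver, 1453/4540 against lung, 2168/2403 against spleen and 2.35% lower than in all 4. Without the 10 highest entries 1406 were higher than in lung. Single transcripts gave 2312/7652 for kidney, 4251/5052 for liver, 1720/12668 for lung, 2520/6354 for spleen and 3.36% higher than in all 4. A pseudocount of 0.1 gave 8.61% lower than in all 4, ET-type animals alone 3.30% and L-type animals alone 7.76%. In ET-type animals alone 31 of the 181 named entries lost their call, among them CISY, COX7B, THIM, ANFB and FOG2. In L-type animals alone 9 did. Leaving out 1 animal gave 3.76% to 3.95% higher and 4.81% to 5.98% lower. With the animal as a replicate block the counts were 523/723 for all 4 tissues, all 181 named entries kept their side of the threshold, and the paired mitochondrial share against kidney differed by 9.46 percentage points (exact p = 0.0547). That difference was 11.3 (permutation p = 0.026) with the kidney of S0235 kept. Entries differing by type numbered 2332 without mitochondrial transcripts, 1478 without the 10 highest entries, 1584 with the replicate block, 218 with the kidney of S0235 kept, 587 for transcripts, 48 to 1884 with 1 animal left out, and 16 without hearts S0309 and S0326, chosen after seeing the data. Median ratios turned CPT1A to 0.00448 and PDIA3 to 0.0555. The cause of these changes was not tested. TPM give no depth, so differences between entries near 0 have no stated counting limit.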

Other observations

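The entries of this part were picked after their values were seen. Regulators of muscle RNA and protein turnover stood among the 524 higher entries. The splicing factor RBM20 had 14.8, 21.6 and 46.6 TPM in heart (lowest, median and highest) and at most 0.383 TPM elsewhere, with a difference of 4.40 from the nearest tissue, and RBM24 was 5.02 above. Members of ubiquitin ligases followed with KLH31 (5.27), KLH41 (5.05), FBX40 (4.30), ASB12 (3.46), ASB2 (3.41) and ASB15 (3.35). SMPX, a small muscle protein, had 308, 934 and 1434 TPM and was 6.77 above spleen, and the nicotinamide riboside kinase NRK2 was 6.01 above lung. PCP4, a calmodulin regulator, had 522, 1539 and 2715 TPM and was 4.78 above spleen.

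The translation machinery held a pair of muscle forms. RL3L, the muscle sister of the ribosomal protein RL3, took a median of 46.3% of their sum in heart (9.44% to 61.3%), while the highest other library, a liver, had 6.43%. EF1A2 took 35.6% of its sum with EF1A1 (4.08% to 70.0%) and no more than 0.228% in another library. EF1A2 itself had 172, 852 and 2449 TPM in heart.

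Some entries high in heart are better known elsewhere. CCKN, the cholecystokinin precursor, had 64.9, 505 and 2144 TPM in heart and at most 6.90 TPM in another library. DAAF3, a dynein assembly factor of cilia, had 1894, 3681 and 6346 TPM in heart, followed by lung with 209, 283 and 492 TPM. Its name rests on a best hit alone. PAI2, a plasminogen activator inhibitor, was 5.78 above kidney. Lower in heart than in each tissue were the liver X receptor NR1H3 (−2.66), apolipoprotein E (APOE, −2.60), the lysosomal protease LGMN (−2.33) and the chemokine CCL19 (−2.41), and all 4 remained calls with median ratios.

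S12A3, the thiazide-sensitive cotransporter, was near 0 in the hearts of S0309 (0.0202 TPM), S0355 (0.0110 TPM) and S0377 (listed at 0), and 121 to 672 TPM in the other 7. The liver, lung and spleen of the same 3 animals had at most 0.365 TPM, while their kidneys had 234 to 372 TPM. Of all transcripts 4.54% carried a name of the heart assembly, against 24.7% of those of the 524 higher entries; for tenderloin the shares were 6.55% and 20.9%. Transcripts with no protein hit gave 408 higher (2.54%) and 260 lower (1.62%) of 16081 tested.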
